A study of Homo sapiens with 9 samples.

Results

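The MYC domain examined here is a stretch of 3 Mb on human chromosome 8 (GRCh37), from 1048 kb before to 1952 kb after the main MYC start site. It holds MYC, the long non-coding RNA genes CASC11 and PVT1, and the gene-poor sequence on both sides. Members were the ATAC-seq peaks whose interval centre lay in this stretch, chosen by position and not by any measured value. The 9 full peak lists held 2612 such intervals among 2165951 in all, and between 200 and 407 per library. In each library the 50000 peaks ranked first by −log10 p are called the strongest peaks below, and these held 629 of them. Merged wherever they overlapped by at least 1 bp, these gave 147 regions in the domain, 5278 on the rest of chromosome 8 and 105878 on chromosomes 1 to 22 and X together.

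ATAC-seq marks open chromatin through the insertion of adapters by the Tn5 transposase. It was applied to the human leukaemia line K562, which derives from chronic myeloid leukaemia, in 3 genotypes with 3 libraries each: parental cells with no STAG2 mutation, a CRISPR-Cas9 edited line heterozygous for STAG2 R614* and an edited line homozygous for it. The STAG2 protein is part of cohesin, a ring-shaped complex that extrudes and holds chromatin loops, and R614* is a premature stop. Each mutant genotype is 1 line. The labels describe homozygous cells that grow attached and are released with trypsin, so genotype, line and growth habit cannot be told apart. Nothing in the labels says that the libraries of a genotype came from separate cultures, so p-values measure only the spread between these libraries.

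MYC encodes a transcription factor of the basic helix-loop-helix leucine zipper class that pairs with MAX and drives growth and division. In blood cells its transcription depends on enhancers that lie far downstream of the gene, within PVT1 and in the gene desert beyond it, and in K562 cells such enhancers have been mapped by silencing them with CRISPR interference. Contact between these enhancers and the promoter is made within a loop domain bounded by CTCF and cohesin. PVT1 is a long non-coding RNA gene whose promoter competes with that of MYC for the same enhancers.

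By GENCODE annotation, MYC runs from 128747680 to 128755197 on the plus strand with its main start site at 128748477. CASC11 runs from 128698588 to 128751233 on the minus strand, so it overlaps the MYC promoter, and starts at 128746213. PVT1 runs from 128806772 to 129199347 on the plus strand. The domain was split into 4 segments. The upstream segment reached to 10 kb before MYC and was 1038 kb long, the MYC segment reached from there to 2 kb before PVT1 (67.1 kb), the PVT1 segment ended with that gene (394.6 kb), and the downstream segment took the remaining 1501 kb. Distances below are from the main MYC start site to the centre of a region, negative where the region lies upstream.

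The full lists held between 181579 and 319986 intervals, and read depth is unknown. The −log10 p at rank 50000 lay between 4.95 and 6.73, so the strongest peaks end at unequal strength in different libraries. Some lists shared intervals with the same start and end. In the domain, wild type replicate 3 and heterozygous replicate 1 shared 125 intervals, 35% of the first and 40.6% of the second list, and wild type replicates 1 and 2 shared 70, 25.4% and 17.2%. Values for these libraries are therefore not independent, and results with each such source counted once are given where they differ. Of 10 erythroid and megakaryocytic genes fixed as markers of K562, between 7 and 8 had a strongest peak at a start site in each library. GATA1 and KLF1 had none in any library, with weaker peaks there in 8 and 4 of the 9 full lists. Of 11 genes of other cell types, between 4 and 5 had one: 4 in every wild type and heterozygous library and 4 to 5 in homozygous ones. CD3E, MS4A1, CD79A, CD14, MPO and ALB had none, and COL1A1, VIM and EPCAM had one in all 9 libraries.

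The MYC promoter was open in every library. In such bulk libraries, fewer cells with an open site and a weaker opening in each cell cannot be told apart. The region at the MYC start, chromosome 8 from 128747284 to 128749000, covered a MYC exon and an intron of CASC11. Its strongest interval ranked at percentiles 71.4, 79.2 and 61.9 of the strongest peaks in wild type replicates 1 to 3, where 100 is the highest peak of a library. The heterozygous libraries had 72.1, 51.4 and 76.2, and the homozygous libraries 80.6, 67.1 and 77.7. The genotypes overlapped, so the MYC promoter had a middle to upper rank in all 3. The authors' caller gave it a fold enrichment over local background between 4.76 and 6.07 across libraries. In 8 libraries the promoter was a single joined interval of 1267 to 1711 bp with 4 to 7 summits. In homozygous replicate 1 it was divided into an interval of 500 bp and one of 825 bp, so that the same promoter counted as 2 peaks.

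CASC11 starts 2.26 kb upstream of the main MYC start site and is read in the opposite direction. The region at its start, from 128746060 to 128746720 and in a CASC11 exon, was also found in all 9 libraries. Its percentiles were 19.5, 14.9 and 56.1 in wild type, 52.8, 44.2 and 48.7 in heterozygous and 29.1, 42.7 and 25.8 in homozygous libraries. The wild type libraries themselves spanned the range of the others, and the pair that shares many intervals, wild type replicate 3 and heterozygous replicate 1, had the highest values. Of the 14 regions of the domain found in all 9 libraries, this was the 1 whose central 500 bp held the core CTCF motif searched (either strand). The same motif was present in 8.05% of all regions, and its presence in these letters is a description of the sequence, not of binding.

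The PVT1 start, from 128806490 to 128807613 and in a PVT1 exon, was weaker. It was among the strongest peaks of 6 libraries: wild type replicate 2 (percentile 34.0), heterozygous replicates 1 and 2 (22.1 and 18.4) and homozygous replicates 1 to 3 (25.6, 72.7 and 36.1). The start was thus among the strongest peaks in all 3 homozygous libraries, in 2 heterozygous and in 1 wild type library. The full lists of the other 3 libraries held a weaker peak at the same place, at rank 54782 in wild type replicate 1, 71304 in wild type replicate 3 and 91399 in heterozygous replicate 3. Since all 9 libraries had a peak at this start, the difference was one of rank.

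**Figure D1:**
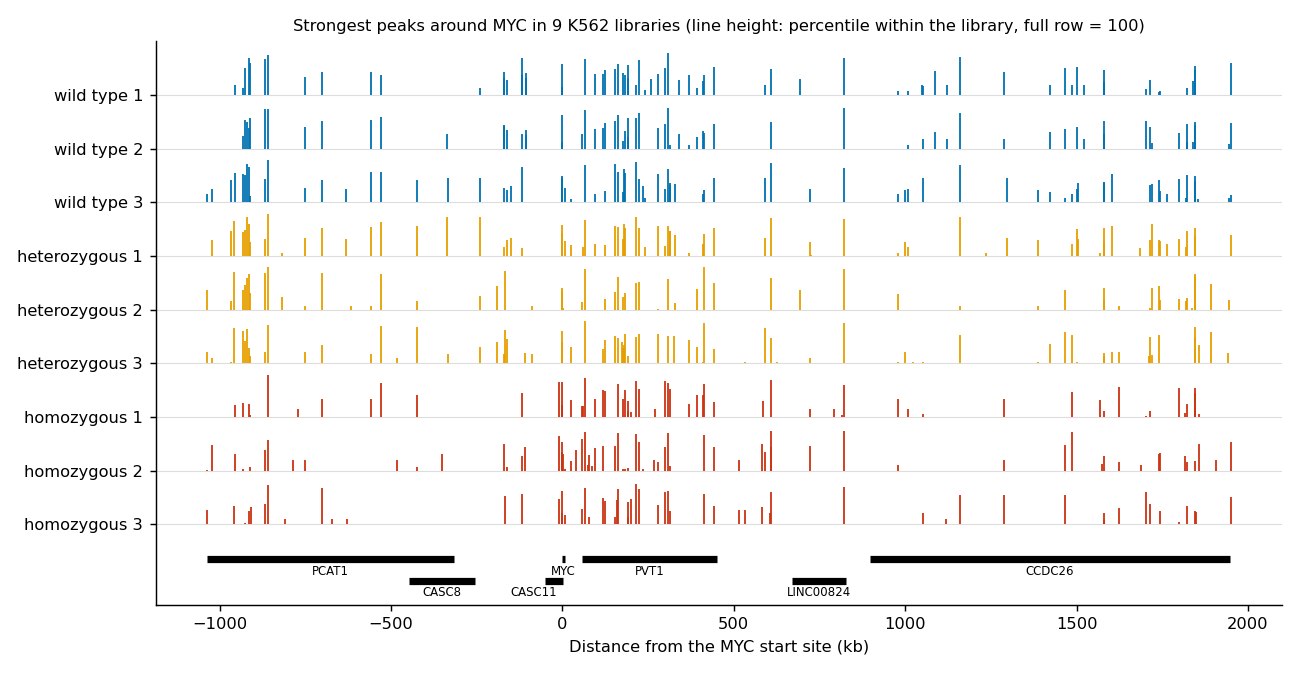
Strongest peaks of each library (rows; blue wild type, orange heterozygous, red homozygous) against distance from the MYC start site in kb. Each line is 1 peak, its height the percentile within the library, and black bars are genes; the dense block over PVT1 is present in all 9 rows, while the group of peaks between 980 and 900 kb upstream is lower in the 3 homozygous rows.

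Peaks were concentrated over PVT1 in every library, as the map of peaks by distance shows. The PVT1 segment is 13.2% of the domain and held between 25.8% and 37.7% of its strongest peaks. Wild type libraries had 5.66 peaks per 100 kb there, heterozygous 4.98 and homozygous 5.49, against 1.93, 2.22 and 1.28 in the upstream and 1.89, 1.82 and 1.49 in the downstream segment. The short MYC segment had 3.97, 5.47 and 7.95. By number, the PVT1 segment held 23, 23 and 21 peaks in wild type, 22, 16 and 21 in heterozygous and 23, 22 and 20 in homozygous libraries. These means of 22.3 ± 1.15, 19.7 ± 3.21 and 21.7 ± 1.53 (SD, n = 3 each) did not pass the exact permutation test (two-sided p = 0.346, adjusted 0.346). Unless said otherwise, this test takes all 3 genotypes together and is called two-sided because it sets no direction. Its p is not one for homozygous against wild type alone. Homozygous minus wild type was −0.667 peaks, and the heterozygous mean was the lowest.

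PVT1 also held 7 of the 14 regions of the domain that were found in all 9 libraries. These were 17.9% of its 39 regions, against 1 of 38 upstream, 4 of 63 downstream and 2 of 7 (28.6%) in the short MYC segment. For the whole domain the share was 9.52%, and for the rest of chromosome 8 it was 17.9%. The strongest was an intronic region 64.5 kb downstream of the MYC start, from 128812383 to 128813650. It stood at percentiles 84.8, 90.6 and 86.4 in wild type, 83.0, 93.7 and 99.6 in heterozygous and 91.8, 89.7 and 83.6 in homozygous libraries. No library ranked it under 83.0, and the genotypes overlapped.

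Next came a region in a PVT1 exon at 308.9 kb, from 129056991 to 129057695. Its percentiles were 99.0, 94.3 and 76.8 in wild type, 69.1, 71.8 and 64.6 in heterozygous and 79.0, 88.8 and 76.5 in homozygous libraries. The heterozygous libraries were the lowest 3 here, below all 6 others. This order was seen in the values and not tested, and its share over all regions was not counted. The third by the naming rule was an intronic region at 162.8 kb, from 128910434 to 128912077. It had 72.8, 79.5 and 70.5 in wild type, 68.0, 77.0 and 58.6 in heterozygous and 76.7, 88.6 and 83.0 in homozygous libraries, and the genotypes overlapped. Each of these 3 PVT1 regions held a GATA motif (AGATAA or TGATAA) in its central 500 bp, which was true of 43.2% of all regions.

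The other 4 shared regions of PVT1 lie outside the naming rule and are given to complete the set. One in an intron at 213.8 kb (128961713 to 128962810) varied most within a genotype, from 23.3 in wild type replicate 1 to 93.5 in wild type replicate 3. It had 60.5 to 91.0 in heterozygous and 84.5 to 92.9 in homozygous libraries. The value of 23.3 belongs to a joined interval of 1098 bp, while every other library had an interval of 500 bp there. Joined intervals carry averaged values, so these ranks are of unlike intervals. The region at 224.1 kb (128971703 to 128973538) covers MIR1205, a microRNA gene hosted by PVT1, and ranged from 53.7 to 83.8 over all 9 libraries. The region at 414.0 kb (129161935 to 129162943) covers MIR1208, another hosted microRNA gene. It had 47.6, 35.8 and 27.9 in wild type, 52.0, 98.5 and 94.5 in heterozygous and 76.1, 82.4 and 70.7 in homozygous libraries. The 3 wild type libraries were thus below all 6 mutant ones, an order not tested and without a counted share over all regions. Near the end of the gene, a region at 440.8 kb (129188665 to 129189967) ranged from 32.4 to 66.1, and the genotypes overlapped.

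Among the 20000 strongest peaks alone, the domain held 22, 22 and 24 in wild type, 30, 19 and 27 in heterozygous and 20, 18 and 20 in homozygous libraries. PVT1 had 36.4%, 31.8% and 33.3% of these in wild type, 33.3%, 36.8% and 33.3% in heterozygous and 55%, 38.9% and 40% in homozygous libraries. The homozygous shares were the highest 3, a pattern seen in the values and not tested, and each rests on 18 to 20 peaks. How often other places showed this order was not counted.

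**Figure D2:**
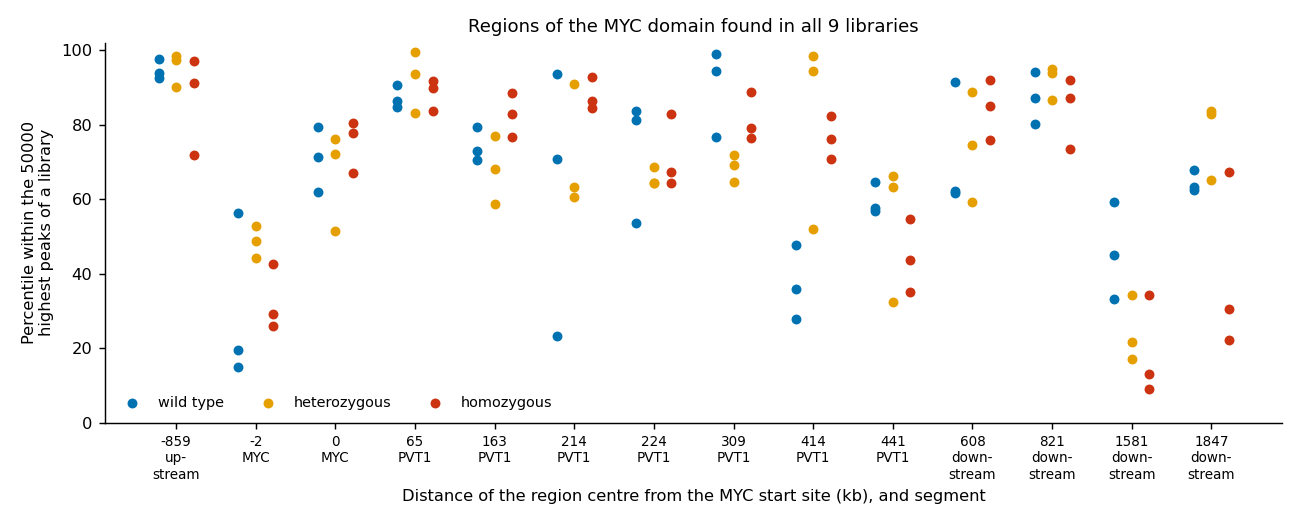
Percentile within the 50000 highest peaks of a library (vertical axis) for the 14 regions of the domain found in all 9 libraries, ordered by distance from the MYC start in kb. Each point is 1 library, coloured by genotype; the MYC start (at 0 kb) lies between 51.4 and 80.6 in all libraries, and the region at 1847 kb is lower in homozygous replicates 2 and 3.

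Beyond PVT1, the downstream segment holds LINC00824 and CCDC26, long non-coding RNA genes of the gene desert. A region in a LINC00824 intron 820.7 kb downstream, from 129568823 to 129569621, stood high in all libraries, at 87.1, 94.3 and 80.1 in wild type, 86.7, 94.9 and 93.8 in heterozygous and 73.4, 92.0 and 87.3 in homozygous libraries. One at 607.7 kb, from 129355643 to 129356732 in an intron of an unnamed long non-coding RNA gene, ranged from 59.3 to 91.9. The farthest of the shared regions lay 1847 kb downstream in a CCDC26 intron, from 130593763 to 130596260. It had 67.9, 63.3 and 62.4 in wild type, 65.1, 82.9 and 83.6 in heterozygous, and 67.2, 22.3 and 30.5 in homozygous libraries. Homozygous replicates 2 and 3 were the lowest here, but replicate 1 lay within the range of the others. In homozygous replicate 2 the region was a single joined interval of 1895 bp, while every other library had separate intervals there. The fourth shared region of the segment, in a CCDC26 intron at 1581 kb, was the weakest of the 14, between 9.06 and 59.3.

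The downstream segment as a whole held 28, 25 and 32 strongest peaks in wild type, 31, 22 and 29 in heterozygous and 22, 23 and 22 in homozygous libraries. The homozygous libraries were at the low end and overlapped heterozygous replicate 2. Means of 28.3 ± 3.51, 27.3 ± 4.73 and 22.3 ± 0.577 (SD, n = 3 each) did not pass the exact permutation test (two-sided p = 0.196, adjusted 0.25). With the 170000 highest peaks of each list, homozygous minus wild type changed sign, from −6.0 to 9.33 peaks.

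Within that segment, CCDC26 was singled out after its values were seen, so it is described without a test. It covers 1050 kb of the domain. The gene held 23, 22 and 27 strongest peaks in wild type, 25, 19 and 23 in heterozygous and 16, 15 and 15 in homozygous libraries. The 3 homozygous libraries lay below all 6 others. Across the genome, the homozygous libraries lay below all others in 13.3% of windows of 1 Mb.

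The upstream segment, which holds PCAT1, CASC19, CASC8 and POU5F1B, had 19, 18 and 23 strongest peaks in wild type, 23, 21 and 25 in heterozygous and 11, 16 and 13 in homozygous libraries. Every homozygous library was below every other library. Means were 20 ± 2.65, 23 ± 2.0 and 13.3 ± 2.52 (SD, n = 3 each), and homozygous minus wild type was −6.67 peaks. In the exact permutation test of all 3 genotypes the two-sided p was 0.0107, and 0.075 adjusted over the 7 values tested for the domain, so the segment did not pass. It passed with the 100000 highest peaks, where the difference was −7.67 (exact permutation test, adjusted p = 0.025). Of windows of 1 Mb, 7.75% had an exact permutation p at or below that of the upstream segment. A p of at most 0.05 was reached by 30.7%, and in 15.6% the homozygous mean was also the lower. After adjustment 0 windows of 1 Mb passed the exact permutation test (0.0%). When libraries that share intervals were averaged to 1 source each, the difference between the homozygous and the other sources was −8.54 peaks (exact permutation test, adjusted p = 0.133, with the raw p at the smallest possible, 0.0286).

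The upstream difference was visible in a group of 8 regions in 60.0 kb, from 127780774 to 127840732, between 980 and 900 kb before MYC. They lie in introns of PCAT1, 1 of them also in an exon of an overlapping unnamed long non-coding RNA gene. This group was picked after its values were seen and was not tested, and no share over groups of this size was counted. It held 5, 5 and 7 strongest peaks in wild type, 7 in every heterozygous library and 4, 3 and 4 in homozygous libraries. The highest percentile in the group was 86.2, 72.5 and 89.8 in wild type, 89.7, 87.2 and 81.8 in heterozygous and 32.6, 39.0 and 42.8 in homozygous libraries. No homozygous library reached the lowest of the others. Close by, at −859.3 kb, a region in a PCAT1 exon (127888705 to 127889576) stood among the strongest of the domain, at 97.0, 71.8 and 91.2 in homozygous libraries against 93.9, 92.6 and 97.6 in wild type and 97.3, 98.4 and 90.2 in heterozygous ones. PCAT1 as a whole held 11, 12 and 18 strongest peaks in wild type, 18, 17 and 18 in heterozygous and 10, 12 and 11 in homozygous libraries within the domain, so wild type and homozygous libraries overlapped.

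The MYC segment went the other way by peak number. It held 2, 2 and 4 strongest peaks in wild type, 4, 3 and 4 in heterozygous and 5, 7 and 4 in homozygous libraries, with means of 2.67 ± 1.15, 3.67 ± 0.577 and 5.33 ± 1.53 (SD, n = 3 each). The genotypes overlapped at 4 peaks (exact two-sided permutation p = 0.0786, adjusted 0.156). Summits gave another order: 8, 8 and 13 in wild type, 10, 7 and 8 in heterozygous and 7, 10 and 9 in homozygous libraries. Homozygous minus wild type was then −1.0 summits, in place of 2.67 peaks. Covered length was 2.07, 2.08 and 3.82 kb in wild type, 3.33, 2.49 and 2.96 kb in heterozygous and 2.83, 4.39 and 2.99 kb in homozygous libraries.

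The MYC gene with 10 kb on either side had 2, 2 and 3 strongest peaks in wild type, 3 in each heterozygous and 4, 5 and 4 in homozygous libraries. All 3 homozygous libraries were above all 6 others, which was so for 3.63% of 8807 genes tested. The exact permutation test gave a two-sided p of 0.0143, and 0.374 adjusted over all these genes. Of them, 11.2% had a p of at most 0.05, 4.73% with a higher homozygous mean, and 0 passed after adjustment (0.0%). The count of 4 in homozygous replicate 1 includes the MYC promoter as 2 intervals. Counted as 1, that library would have 3 peaks, equal to wild type replicate 3 and the heterozygous libraries, so the separation rests on this split. With the 100000 highest peaks, the exact permutation p for MYC was 0.779. CASC11 had the same counts, because the flanked genes take in the same peaks. PVT1 had 23, 23 and 21, 22, 16 and 21, and 23, 22 and 20 peaks (exact two-sided permutation p = 0.346, adjusted 0.807).

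**Figure D3:**
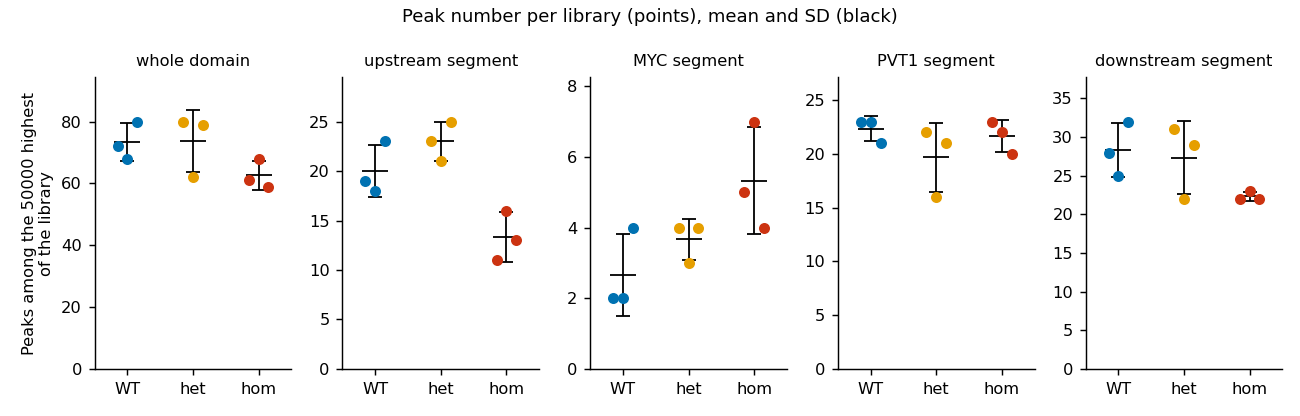
Number of the 50000 highest peaks per library (points) in the whole domain and in its 4 segments, with the mean and SD of 3 libraries in black; WT, het and hom are wild type, heterozygous and homozygous. Each axis starts at 0; in the upstream segment the homozygous libraries (11 to 16) lie below the other 6 (18 to 25).

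Over the whole domain, the number of strongest peaks was 72, 68 and 80 in wild type, 80, 62 and 79 in heterozygous and 61, 68 and 59 in homozygous libraries. Homozygous libraries were at the low end and overlapped both other genotypes. Means of 73.3 ± 6.11, 73.7 ± 10.1 and 62.7 ± 4.73 (SD, n = 3 each) did not pass the exact permutation test (two-sided p = 0.214, adjusted 0.25). The difference between homozygous and wild type was −10.7 peaks, and that between heterozygous and wild type 0.333. For a pair of genotypes, 3 libraries against 3, no exact two-sided p can fall below 0.1.

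Chromosome 8 as a whole gave homozygous libraries 2586, 2608 and 2579 strongest peaks, against 2430, 2480 and 2484 in wild type and 2570, 2298 and 2554 in heterozygous ones. The domain therefore held a smaller share of the chromosome's peaks in homozygous libraries. That share was 2.96%, 2.74% and 3.22% in wild type, 3.11%, 2.70% and 3.09% in heterozygous and 2.36%, 2.61% and 2.29% in homozygous libraries. All 3 homozygous libraries lay below all others, and homozygous minus wild type was −0.557 points (exact permutation test of all 3 genotypes, p = 0.05, adjusted 0.156). How often the share of other windows showed this order was not counted. By peak number, 13.3% of windows of 1 Mb had all 3 homozygous libraries below all 6 others. Counting summits was a choice made after seeing the data. The exact permutation test of all 3 genotypes then gave an adjusted p of 0.05, which reached the threshold. Homozygous minus wild type was −0.620 points by summits. Longer lists gave smaller differences: −0.154 points with the 100000 highest peaks, −0.134 with the 170000 highest and −0.00139 with the full lists, against −0.250 with the 20000 highest. With the 100000 highest, homozygous replicate 1 (2.57%) lay above wild type replicates 1 and 2 (2.45% and 2.54%), so the genotypes overlapped. The domain's summits numbered 133, 132 and 154 in wild type, 141, 104 and 127 in heterozygous and 94, 107 and 110 in homozygous libraries, and its intervals covered 49.6, 48.9 and 58.5 kb, 54.7, 41.8 and 50.6 kb, and 39.2, 44.3 and 41.3 kb. Joined intervals, those with more than 1 summit, numbered 32, 34 and 43, then 36, 28 and 27, and then 20, 22 and 27.

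The domain was set beside all other windows of 3 Mb. Of 942 windows with a mean of at least 2 peaks, 40.0% had an exact permutation p of at most 0.05, 20.2% with a lower and 19.9% with a higher homozygous mean, and 0 passed after adjustment (0.0%). The domain, at p = 0.214 in the exact permutation test, was not among them. Its difference of −10.7 peaks was undercut by 14.5% of windows in the genome and by 4 of 47 on chromosome 8, whose median difference was 3.0. In wild type libraries the domain ranked 7 of 47 windows of chromosome 8 by peak number, and in homozygous libraries 18 of 47.

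**Figure D4:**
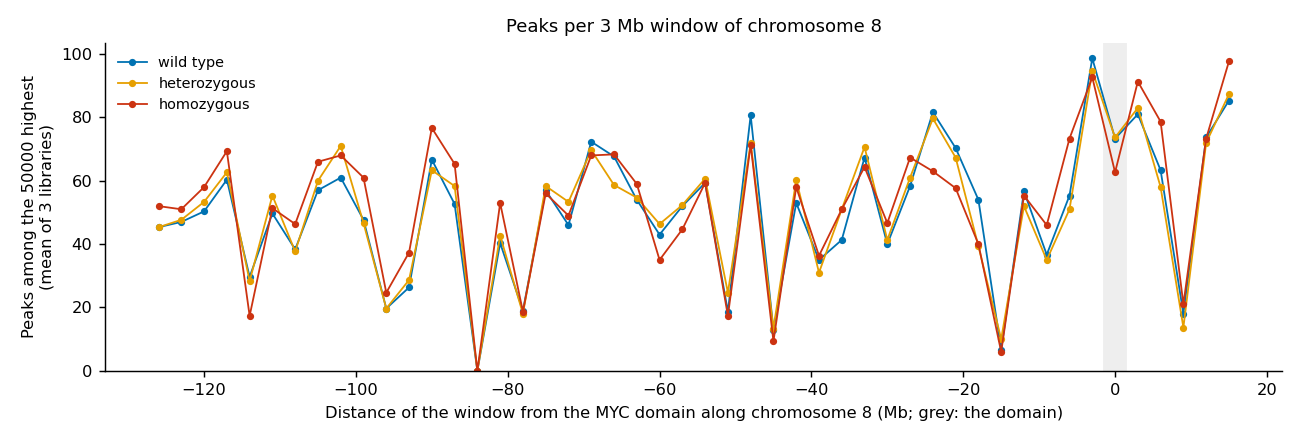
Mean number of the 50000 highest peaks of 3 libraries (vertical axis) in each window of 3 Mb along chromosome 8, by distance from the MYC domain in Mb (grey band). Lines join windows of 1 genotype; in the domain the homozygous mean (62.7) is below the wild type (73.3) and heterozygous (73.7) means, while the median window of the chromosome is 3.0 peaks higher in homozygous than in wild type libraries.

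Among the 50000 highest peaks, those of the domain were ranked below those of the rest of the chromosome. Their median percentile was 47.5, 48.7 and 46.5 in wild type, 44.9, 44.7 and 42.7 in heterozygous and 41.7, 38.7 and 43.1 in homozygous libraries. The rest of chromosome 8 had 54.8, 53.3 and 52.4, then 51, 50.1 and 50, and then 49.8, 46.6 and 51.7. At this list length the median in the domain was thus lower in all 9 libraries. This gap was −5.92 ± 1.32 in wild type, −6.26 ± 0.975 in heterozygous and −8.21 ± 0.379 points in homozygous libraries (SD, n = 3 each). It was lowest in the 3 homozygous libraries (exact permutation test of all 3 genotypes, p = 0.0893, adjusted 0.156). How often other windows showed this order was not counted. The gap itself depended on list length. With the 100000 highest peaks its means were 7.92 in wild type, 2.60 in heterozygous and −0.725 points in homozygous libraries, with the 170000 highest 5.43, 8.96 and 4.84, and with the full lists 9.24, 16.1 and 10.3. The domain was then ranked above the rest of the chromosome in all 9 libraries (170000 highest) and in all except wild type replicate 2 (full lists). With the full lists, homozygous minus wild type was 1.06 in place of −2.29 points.

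Single regions were compared by presence: a region was said to separate 2 genotypes if it was among the strongest peaks in each of the 3 libraries of one and in 0 of 3 of the other. Between homozygous and wild type libraries, 4 of 133 domain regions did so (3.01%), 2 in each direction. The share was 6.13% on the rest of chromosome 8 and 6.16% over all regions, 2.7% present in homozygous and 3.46% present in wild type libraries. Between homozygous and heterozygous libraries 7 of 136 did (5.15%), 2 present in homozygous and 5 in heterozygous libraries, against 6.10% on the rest of the chromosome and 6.57% over all regions (3.16% and 3.41% by direction). Between heterozygous and wild type libraries 0 of 120 did, against 1.10% and 0.897% (0.393% present in heterozygous and 0.504% in wild type libraries). Wild type replicate 3 and heterozygous replicate 1 share intervals, and a region in both cannot separate these 2 genotypes. Without wild type replicate 3, which relaxes the rule, 14 of 119 did (11.8%, against 9.98% on the rest of chromosome 8). Without heterozygous replicate 1, 9 of 116 did (7.76%, against 6.0%). With all 9 libraries the domain's shares lay below the background in all 3 comparisons at this list length, a difference that was not tested. With the 100000 highest peaks they lay above the rest of chromosome 8 for homozygous against wild type (5.70% against 4.62%) and against heterozygous libraries (5.90% against 4.25%), and with the 20000 highest for homozygous against wild type (6.0% against 5.49%).

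The 4 regions between homozygous and wild type libraries included the 1 nearest to MYC. It lay at −9.48 kb in a CASC11 intron, from 128738736 to 128739250. Homozygous libraries had it at percentiles 82.4, 81.8 and 59.6, and heterozygous replicate 3 at 1.02. In the full lists, whose lengths differ, it ranked 8823, 9085 and 20224 in homozygous, 124463, 112528 and 122485 in wild type, and 166365 and 49491 in heterozygous replicates 1 and 3, with no peak in heterozygous replicate 2. The homozygous ranks were thus all stronger than the other 6 libraries, and wild type libraries held only weak peaks there. None of the 5 motifs searched was in its central 500 bp.

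The other 3 regions of this comparison lay in CCDC26. One at 1624 kb in a CCDC26 exon (130372496 to 130373312) was present in homozygous libraries at 69.5, 20.9 and 37.8 and in heterozygous replicates 2 and 3 at 7.59 and 27.4. Those at 1422 kb (130169589 to 130170605) and 1502 kb (130249788 to 130250543), both intronic, were missing from homozygous libraries. Wild type libraries had the first at 24.3, 37.9 and 23.8 and the second at 65.0, 50.4 and 31.4. Heterozygous replicate 3 had the first at 44.2, and heterozygous replicates 1 and 3 had the second at 63.0 and 3.25.

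Of the 7 regions between homozygous and heterozygous libraries, the strongest was at −919.0 kb in introns of PCAT1 and an unnamed gene (127829215 to 127829731). Heterozygous libraries had it at 89.7, 73.7 and 80.9 and wild type replicates 2 and 3 at 63.1 and 89.8, while homozygous libraries ranked it 80367, 70880 and 63760 in their full lists. An intergenic region at −239.8 kb (128508205 to 128509084) had 90.0, 31.1 and 37.9 in heterozygous libraries, and regions at −967.4, 1387 and 1720 kb made up the 5. The 2 present in homozygous libraries were an intronic PVT1 region at 190.1 kb (128938140 to 128938992; 36.3, 6.69 and 18.0) and a CCDC26 intron at 1288 kb (130036088 to 130036630; 42.8, 24.3 and 68.5), each also present in wild type replicates 1 and 2.

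**Figure D5:**
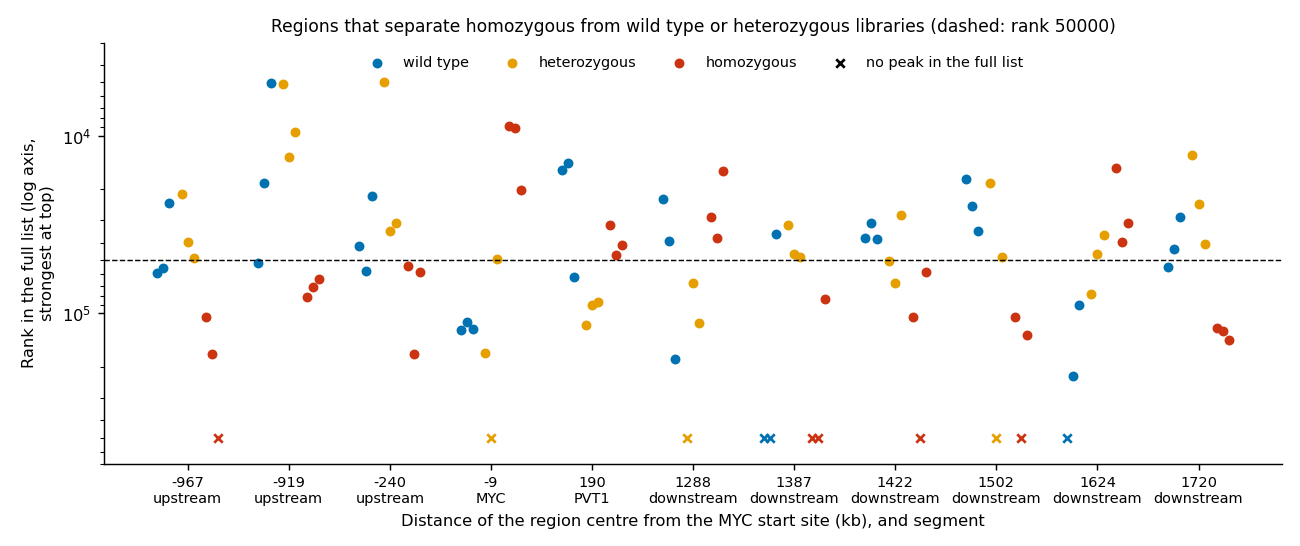
Rank in the full list (log axis, strongest at the top) of the 11 regions that separated homozygous from wild type or from heterozygous libraries, by distance from the MYC start in kb. Points are libraries coloured by genotype, crosses mark libraries with no peak in the full list, and the dashed line is rank 50000; most libraries below the line still have a weaker peak.

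None of these separations was an absence from all 3 full lists of the genotype that lacked the region. Each of the 11 regions had a weaker peak in the full list of 1 to 3 libraries of the genotype that lacked it. The full lists reach down to a −log10 p of about 2, so such a peak can lie close to the limit of a list. For example, the region at −967.4 kb had 3.95 and 2.74 in homozygous replicates 1 and 2 and no peak in replicate 3. The region at −919.0 kb had 4.39, 4.54 and 5.89 in homozygous replicates 1 to 3. When absence required no peak in the full list, 0 regions were left in any of the 3 comparisons. On the rest of chromosome 8 this rule left 0.737% of regions (homozygous against wild type), 0.0% (heterozygous against wild type) and 0.952% (homozygous against heterozygous), so few were left there as well. Of the 147 regions, 73 had a peak in all 9 full lists and 35 in 7 or 8 of them.

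By sequence, the domain's regions were compared with all regions of the same searched length, 500 bp around the centre and on both strands. An AP-1 motif (TGANTCA), which binds FOS and JUN dimers, was in 49 of 147 (33.3%), against 24.6% on the rest of chromosome 8 and 22.9% over all regions. Within the domain its share was 41.0% in PVT1, 34.2% upstream, 30.2% downstream and 14.3% (1 of 7 regions) in the MYC segment. GATA motifs, bound by the erythroid factor GATA1 among others, were in 51%, against 45.5% and 43.2%. The RUNX motif (TGTGGTT) was in 12.9% of domain regions, 23.1% of those in PVT1 and 10.0% of all regions. An ETS motif (CCGGAAGT) was in 1 region, and the CTCF motif in 9 (6.12%), against 8.37% on the rest of the chromosome. The median GC content was 45.8% in the domain and 47.4% over all regions. Within 1 kb of an annotated start site lay 29 regions (19.7%), against 17.5% on the rest of chromosome 8, and by annotation 12 were intergenic, 35 touched an exon and 100 lay in introns alone.

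The wider MYC network, MAX and the proteins that share or compete for it, was examined at 12 genes. MAX is the partner of MYC, MXD1, MXD3, MXD4, MXI1, MNT and MGA are MAX partners that repress or oppose MYC, MLX, MLXIP and MLXIPL form a parallel branch, and MYCN and MYCL are MYC paralogs. Of the 10 with enough peaks to test, 0 had an exact permutation p of at most 0.05, against the 11.2% of all genes, and the lowest was 0.132 for MAX. Its peak number was 4, 3 and 5 in wild type, 5, 5 and 3 in heterozygous and 3, 1 and 2 in homozygous libraries, which overlapped at 3. The median difference between homozygous and wild type was 0.333 peaks over the 10 genes and 0.0 over all genes tested.

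At main start sites, 7 of the 12 genes had a strongest peak in all 9 libraries. MXD1 was the highest of them, between 93.8 and 99.4. In 2 of the 12 the 3 homozygous libraries stood above all others, which was so for 7.13% of start sites genome-wide, and in 0 below, against 5.27%. MGA had 63.6, 64.8 and 76.0 in homozygous, 31, 10.5 and 14.9 in wild type and 24.8, 60.3 and 52.2 in heterozygous libraries. MNT had 51.2, 38.2 and 29.1 in homozygous libraries, 10.5 and 11.1 in wild type replicates 1 and 2 and no strongest peak in the other 4. The MYC start itself, at 67.1 to 80.6 in homozygous libraries, overlapped the others.

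Among 1564 protein-coding genes on other chromosomes with a mean of at least 5 peaks, the numbers most like that of the whole domain over the 9 libraries were those of GYPB, EPAS1 and PLCH1 (Pearson r = 0.949, 0.940 and 0.928, across 9 libraries, some of which share intervals). GYPB, a red cell surface glycoprotein gene, had 6, 6 and 8 peaks in wild type, 8, 6 and 8 in heterozygous and 5, 6 and 5 in homozygous libraries. This is a likeness of small counts chosen from many genes and is given as a description.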

How the data were processed

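The data were 9 ATAC-seq peak lists from K562 cells, 1 per library of 50000 cells and single-end reads of 100 bp, per the labels' protocols. The submitters' processing notes name cutadapt, Bowtie2 2.2.9, Picard, MACS2 2.1.0 and the build GRCh37, without settings. A shift of reads for Tn5 is not given in the sources used here. Each peak carries a fold enrichment, read as a linear ratio, and the −log10 of its p-value and q-value, all deposited by the authors. A deposited display score holds no measurement. These values are the authors' and served only to rank peaks within a list. From the values, peaks are windows of 500 bp around a summit, joined where they overlapped, with averaged values. The lists hold no counts, so no count model was used and depth is unknown.

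Peaks of chromosomes 1 to 22 and X were ranked by −log10 p, and the 50000 highest per library were compared. Gene limits came from GENCODE release 44 on GRCh37. Values per library were tested by an exact permutation of the between-genotype sum of squares over 280 assignments (smallest p 0.00357), adjusted by the Benjamini-Hochberg method over 7 domain values, all windows or all genes, with 0.05 as the threshold. Genes and windows with a mean under 2 peaks were not tested. Python 3.11.15 with numpy 2.4.6 and pandas 2.3.3 was used, and the test was tested on simulated data.

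Named regions were those at the MYC, CASC11 and PVT1 starts, the 3 per segment with the highest lowest percentile over 9 libraries, and those that separated genotypes (up to 5 per direction). The domain, gene lists and tests were chosen with earlier results of these data known. Windows of 1 Mb, summit counts, the shares at gene start sites, the PVT1 share of the 20000 highest peaks, the region group before MYC and CCDC26 and PCAT1 counts were added after seeing the data. One marker, PECAM1, had no entry in the annotation under that name. The values of 1 other marker are not reported here.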

Additional observations from a re-analysis of the deposited data

How the results depend on the processing

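For the 7 domain values, homozygous minus wild type was recomputed with other peak sets, ranking, limits and libraries. The sign changed for the rank gap between the domain and the rest of chromosome 8 (9.22 points with the 20000 highest, 1.06 with the full lists, 0.202 when ranked by fold enrichment), for PVT1 (1.0 peaks with the 20000 highest, 3.67 with the 170000 highest, 1.29 with each source counted once, 0.167 without homozygous replicate 3), for the downstream segment (9.33 with the 170000 highest) and for the MYC segment (−1.0 with summits). The threshold was reached by the upstream segment with the 100000 highest peaks (−7.67 peaks) and by fold enrichment (−8.0), and by the share of chromosome 8 with summits (−0.620 points). The cause was not tested. The difference in domain peak number was negative and did not pass in any of 19 alternatives, but with the 170000 highest peaks it was only −1.0 on means of 208 and 207.

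Counts of separating regions moved most. Homozygous against wild type gave 15 with the 100000 highest, 16 with the 170000 highest, 14 with the full lists and 0 when absence meant no peak in a full list; homozygous against heterozygous gave 2 with the 20000 highest, then 16, 19, 23 and 0. Heterozygous against wild type gave 3 with the 170000 highest, 4 with the full lists and 1 by fold enrichment. These were 0.686%, 0.637% and 0.794% of domain regions, against 0.681%, 1.21% and 1.08% on the rest of chromosome 8. For homozygous against wild type the shares called were 5.70%, 3.28% and 1.89% with the 100000 highest, the 170000 highest and the full lists, against 4.62%, 3.27% and 3.28% on the rest of chromosome 8. For homozygous against heterozygous they were 5.90%, 3.77% and 3.53%, against 4.25%, 2.90% and 2.38%. With the 20000 highest the share for this pair was 3.57%, against 5.8%. Leaving out 1 library, which relaxes the 3 against 3 rule, gave 4 to 12, 7 to 12 and 0 to 14 for homozygous against wild type, homozygous against heterozygous and heterozygous against wild type. The last was 14 without wild type replicate 3, 9 without heterozygous replicate 1 and 3 without heterozygous replicate 3. These were 11.8%, 7.76% and 2.70% of domain regions, against 9.98%, 6.0% and 1.89% on the rest of chromosome 8, so the share rose there too. For homozygous against wild type the domain share stayed below that of the rest of chromosome 8 in each such run. For homozygous against heterozygous it lay above without heterozygous replicate 2 (9.09% against 8.55%) or 3 (9.23% against 8.21%), and below in the other runs. Leaving out 1 library gave −1.33 to 0.167 peaks for PVT1.

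Windows and genes past the adjusted threshold numbered 0 in all alternatives run. Whether replicate numbers pair the libraries was not settled. Correlations of same-numbered libraries over 942 windows lay between −0.284 and 0.0988, and libraries with unlike numbers were not set beside them. These correlations are not of raw peak numbers, which go together in all libraries. For example, 1 window of 3 Mb on chromosome 8 held 88 to 104 peaks and another 5 to 15. With the replicate number as a block, the exact permutation test of all 3 genotypes gave the upstream segment an adjusted p of 0.194. Its raw p, 0.0278, is the smallest that 36 assignments allow, and homozygous minus wild type was −6.67 peaks. In the same test 103 genes had a p of at most 0.05 in place of 988, and 111 windows in place of 377. Placing peaks by the deposited summit offset was not run, since the offsets are not counted from the interval start. Without read depth, a peak missing from a list cannot be told from one below detection.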
